A study of Mus musculus with 36 samples.

Results

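The genes described here are the 53 listed components of the mouse DNA replication machinery, from the origin recognition complex to the enzymes that supply deoxynucleotides. They were chosen by gene symbol, and all 53 were found among the 54842 gene rows of the count table. RNA was sequenced from 36 libraries of mouse embryonic fibroblasts (MEF) that carry a doxycycline-inducible dCas9, a Cas9 without nuclease activity, together with a constantly expressed guide RNA against the major satellite repeats (MSR) of pericentric heterochromatin. In MSR-dCas9-Control cells the dCas9 carries no effector domain, and in MSR-dCas9-Activator cells it is fused to VPR, a transcriptional activator. Each line was sampled uninduced, induced, and at 3, 6, 12 and 24 h of recovery without doxycycline, with 3 libraries in each of the 12 groups. Both lines received doxycycline at 10 ng/ml, but MSR-dCas9-Control cells for 24 h and MSR-dCas9-Activator cells for 6 h, so that line and length of induction cannot be told apart. Both are mixed cultures made by PiggyBac transposition under hygromycin selection, and the guide is present in both, induced or not.

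Before S phase, the origin recognition complex (ORC), CDC6 and CDT1 load the MCM2-7 helicase onto DNA, and geminin (GMNN) inhibits CDT1 so that origins are licensed once per cycle. In S phase the kinase CDC7 with its partner DBF4, and the joining of CDC45 and the GINS complex to MCM2-7, turn the loaded helicase into the active CMG complex, after which primase and the DNA polymerases copy both strands behind it. Many of these genes are known targets of E2F transcription factors, and their messenger RNAs peak around the entry into S phase and are abundant in proliferating cells.

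The libraries held from 27376846 to 57371803 counts in genes, and the 53 replication genes held between 119 and 23083 counts each per library, so none was near the detection limit. The major satellite family GSAT_MM, the target of the guide, stood at 22.6 to 47.1 CPM (counts scaled to an equal library total in genes) in the 18 MSR-dCas9-Control libraries, at 52.1 to 99.3 in the uninduced MSR-dCas9-Activator libraries, and between 2363 and 47244 in the 15 later ones. The 13 fibroblast markers summed to 23277 to 36174 CPM in MSR-dCas9-Control libraries and to 11318 to 35582 CPM in MSR-dCas9-Activator ones, although *Thy1* was nearly absent from both lines, and the part of this difference in the results was not tested. The 3 blood and macrophage, 4 epithelial and 3 pluripotency markers summed to at most 8.68, 3.54 and 3.50 CPM in any library. The 3 endothelial markers summed to at most 0.873 CPM in MSR-dCas9-Control libraries and to between 0.280 and 33.5 CPM in MSR-dCas9-Activator ones. This rise came mainly from *Pecam1*, with up to 1590 counts in a library, where *Cdh5* and *Kdr* held at most 22 and 54. The part of these markers in the results was not tested. In bulk RNA, fewer cells of a type and less RNA per cell cannot be told apart.

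In uninduced MSR-dCas9-Control cells, levels per kilobase of exon ran from that of *Orc5* to that of *Pcna*. *Pcna*, which encodes the clamp that tethers polymerases to DNA, was highest at 98.0 ± 7.07 CPM per kilobase (SD, n = 3). The ribonucleotide reductase subunit gene *Rrm2* followed at 71.9 ± 6.68, and *Mcm5* at 66.8 ± 4.53 and *Mcm3* at 65.8 ± 1.88 came next, the last pair differing by less than their spread. At the other end stood *Orc5*, one of the ORC subunits, at 4.57 CPM per kilobase.

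Promoter sequence, from 250 bases before to 50 bases after the start, was on record in RefSeq (GRCm38.p6) for 44 of the 53 genes. An E2F-type word (TTTCCCGC, TTTGGCGC, TTTCGCGC or TTTGCCGC, on either strand) occurred in 16 of these 44, or 36.4%, against 2.6% of the 27025 genes in the table. The CCAAT box (CCAAT) occurred in 56.8% of the 44 and in 41.1% of all genes, and the word TTTGAA, the core of the CHR cell cycle element, in 15.9% and 20.2%. Windows of 60 bases upstream of the RefSeq start are shown for 4 genes that were higher in MSR-dCas9-Activator cells early in the course and 2 that were lower, so that both kinds can be seen to hold the word. The gene models of GENCODE M21 differ: by them the windows of *Mcm7*, *Cdc6* and *Gins3* lie within the gene, and that of *Orc1* spans its start. Capitals mark the E2F-type words, each window reads 5′ to 3′ on the strand of its gene, and *Mcm5* and *Mcm6* hold 2 overlapping words.
Mcm5 (chr8:75109330-75109389, plus strand): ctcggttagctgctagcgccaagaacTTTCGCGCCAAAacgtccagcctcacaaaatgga
Mcm6 (chr1:128359782-128359841, minus strand): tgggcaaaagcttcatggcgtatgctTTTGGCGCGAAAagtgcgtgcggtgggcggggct
Mcm7 (chr5:138172015-138172074, minus strand): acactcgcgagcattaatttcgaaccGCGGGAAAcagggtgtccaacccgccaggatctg
Cdc6 (chr11:98907987-98908046, plus strand): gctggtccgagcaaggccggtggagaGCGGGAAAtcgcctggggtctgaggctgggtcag
Orc1 (chr4:108579394-108579453, plus strand): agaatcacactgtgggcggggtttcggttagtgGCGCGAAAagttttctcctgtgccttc
Gins3 (chr8:95633492-95633551, plus strand): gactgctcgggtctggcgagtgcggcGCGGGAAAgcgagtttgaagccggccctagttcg

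Before induction, no replication gene passed the test between the lines, in which 1.23% of the 28536 genes tested were called in either direction. Calls here and below are those of edgeR's quasi-likelihood test with a Benjamini-Hochberg adjusted p-value under 0.05 over all genes tested, and fold changes are log2 of MSR-dCas9-Activator over MSR-dCas9-Control after scaling by TMM factors. Still, 51 of the 53 log2 fold changes were below 0, with a median of -0.18 against 0.03 over all genes. An unadjusted p under 0.05 was found for 17 of the 53, and for 2964 of the 28536 genes tested. DESeq2 called 1 of the 53 (1.25% of all genes higher and 0.71% lower). A fit on the compared groups alone called 3 (1.46% and 0.40%).

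At the end of induction calls went both ways, in shares below those of all genes: 13 of the 53 genes were higher (background 31.7% of all genes) and 11 lower (25.5%) in MSR-dCas9-Activator cells. At 3 h, 26 were higher (39.6%) and 13 lower (31.4%), and at 6 h 23 were higher (40.8%) and 16 lower (33.3%). At 12 h the balance turned, with 11 higher (41.1%) and 27 lower (34.1%), and by 24 h only *Orc4* was higher (34.5%) while 41 were lower (29.4%). The median log2 fold change of the 53 went from 0.14 at induction through 0.21, 0.12 and -0.25 to -0.65 at 24 h, where that of all genes was 0.01. Among the 13628 genes with a mean count above 100, a group that includes all 53, 29.5% were higher and 42.8% lower at 3 h, where their median was -0.11. At induction these values were 23.4%, 36.2% and -0.07, so the share of the set that was higher was not below that of the abundant genes. For 6 h they were 29.2%, 46.3% and -0.18. For 12 h these values were 26.3%, 50.7% and -0.29, and for 24 h they were 17.7%, 49.5% and -0.30. Read against these abundant genes, the replication genes lay above the background at 3 h, near it at 12 h and below it at 24 h.

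The sign of the early differences rests on the scaling. Scaled to the 13 mitochondrially encoded messenger RNAs, the median of all genes moved from 0.16 to -0.44 at 3 h and from 0.12 to -0.49 at 12 h, and among the replication genes 1 was called higher (23.5% of all genes) and 31 lower (47.6%) at 3 h. By the same scaling 43 were lower at 12 h (48.5% of all genes), 48 were lower at 24 h (30.8%), and none was higher at those times (28.1% and 28.4%). With DESeq2's size factors the medians of all genes were 0.29 at 3 h and 0.33 at 12 h, and 19 of the 53 genes were higher (46.9% of all genes) and 19 lower (28.01%) at 12 h. Relative to the median of all genes, the median of the 53 was 0.05 higher at 3 h and 0.66 lower at 24 h with TMM, and 0.06 higher and 0.65 lower with mitochondrial scaling. Words such as higher in what follows are therefore relative to the TMM-scaled total of genes, and the differences among replication genes within a library do not depend on that choice.

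**Figure D1:**
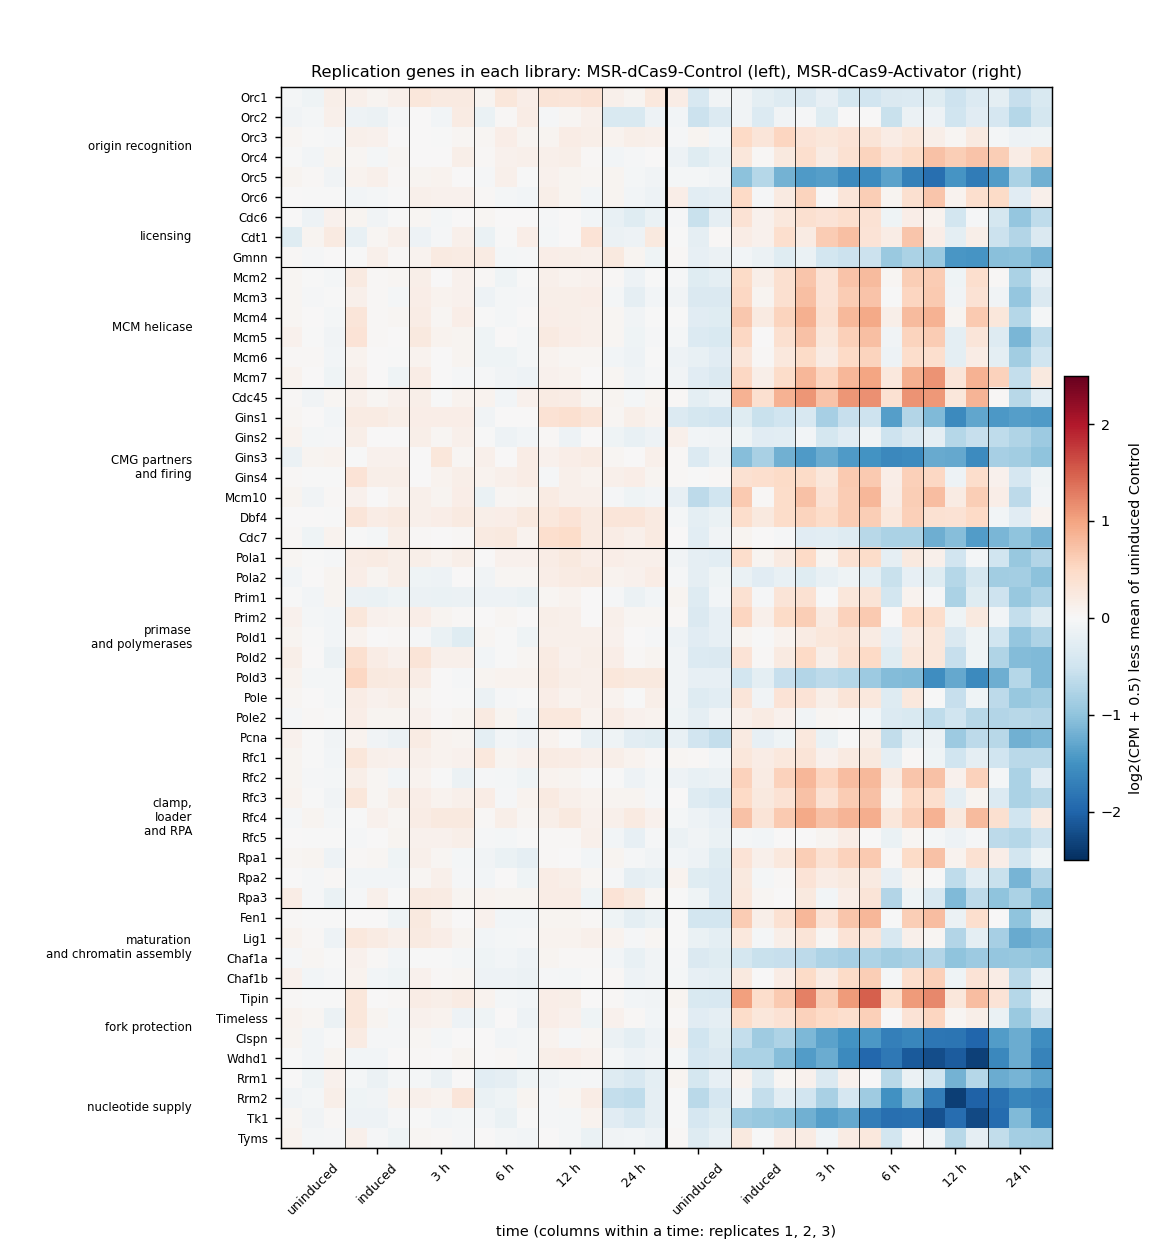
Level of each of the 53 replication genes (rows, by role) in each of the 36 libraries (columns, 3 replicates per time), as log2(CPM + 0.5) less the mean of the uninduced MSR-dCas9-Control libraries. MSR-dCas9-Control libraries on the left stay near 0, and on the right *Wdhd1*, *Clspn*, *Tk1*, *Orc5* and *Gins3* fall early. The MCM genes, *Cdc45* and *Tipin* stand mostly above 0 from induction to 12 h with TMM scaling, a sign that mitochondrial scaling reverses for most of the genes above 0. Replicate 2 is the lowest of the 3 MSR-dCas9-Activator libraries for most MCM genes from induction on. It lies below 0 for some of these genes at 6 h and at 12 h.

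Summed over the 53 genes, the MSR-dCas9-Activator libraries of replicate 2 held 4459 CPM at 6 h and 2897 CPM at 24 h, against 6880 and 4138 in replicate 1 and 6186 and 3557 in replicate 3. Replicate 2 was the lowest of the 3 MSR-dCas9-Activator libraries at all 6 times, while the MSR-dCas9-Control sums stayed between 4826 and 5698 CPM throughout. Of the marker genes, some chosen after their values were seen also differed in this replicate at 24 h. The fibroblast gene *Pdgfrb* stood at 22.1, 114.98 and 26.3 CPM in MSR-dCas9-Activator replicates 1, 2 and 3, *Dcn* at 124, 663 and 175, and the endothelial gene *Pecam1* at 27.0, 7.59 and 19.9. By the chi-square distance of their counts over all genes, replicate 1 was the most distant of the 3 MSR-dCas9-Activator libraries before induction, at 3 h and at 6 h. The part of these differences in the results was not tested. Leaving out replicate 2 of both lines gave 35 genes higher (46.1% of all genes) and 11 lower (26.1%) at 3 h, where the median of all genes moved from 0.16 to 0.39 and that of the 53 relative to it from 0.05 to 0.12. The corresponding counts were 20 (44.5%) and 19 (30.8%) at 12 h, then 6 (41.0%) and 34 (28.3%) at 24 h. Without replicate 3 the counts of calls fell from 24 to 9 at induction and from 39 to 24 at both 3 h and 6 h. Calls over all genes fell as well, at induction from 31.74% to 20.54% higher and from 25.55% to 15.49% lower. At 3 h they fell to 30.8% higher and 24.33% lower, and at 6 h to 32.6% and 25.92%. The lower levels at 24 h were thus seen with each replicate left out, with 34 to 43 genes lower, whereas the number of genes higher at 12 h ranged from 4 to 20.

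Combining the times up to 6 h with 24 h gave 3 courses. Of the 53 genes 27 were called higher at 1 or more of the 3 times up to 6 h, 16 were called lower, 10 were not called, and none was called in both directions. Of the 27, 16 were lower at 24 h, 10 were not called there, and *Orc4* stayed higher. Of the 16, 15 were still lower at 24 h, the exception being *Orc2*. The 10 genes without a call up to 6 h, among them *Pcna*, the ligase gene *Lig1* and the thymidylate synthase gene *Tyms*, were all lower at 24 h. By the same rule 33.8% of the 13628 genes with a mean count above 100 were early higher, 48.8% early lower and 17.1% not called, against 50.9%, 30.2% and 18.9% of the 53. Of those early higher abundant genes 18.8% were lower at 24 h and 41.4% still higher, where the replication genes gave 59.3% and 3.7%. The share lower at 24 h was 69.6% of the early lower abundant genes and 52.5% of those without an early call. Over all genes tested, 45.4% were early higher, of which 7.15% were lower at 24 h. The E2F-type word was present in 9 of the 21 early higher genes that have a promoter on record, 5 of the 13 early lower genes, and 2 of the 10 others. In uninduced MSR-dCas9-Control cells the median level was 14.4 CPM per kilobase for the early higher genes, 10.1 for the early lower and 17.1 for the others, with ranges that overlap widely.

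**Figure D2:**
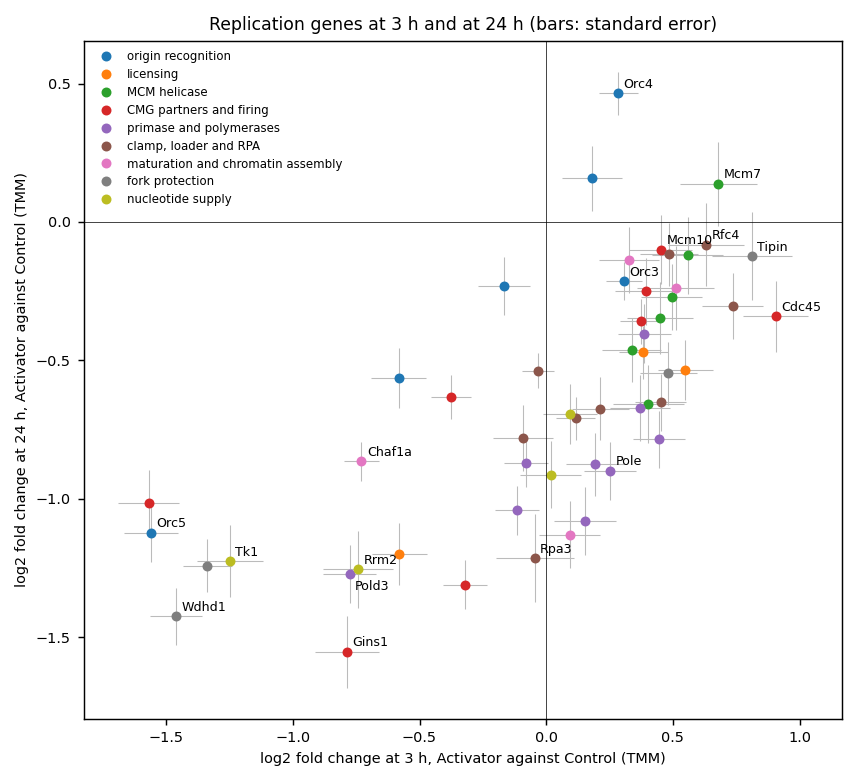
Log2 fold change of each replication gene at 3 h (horizontal axis) and at 24 h (vertical axis), MSR-dCas9-Activator against MSR-dCas9-Control with TMM scaling, colours by role and bars of 1 standard error. Most points on the right lie below the horizontal line, being above 0 at 3 h and below 0 at 24 h, and *Wdhd1*, *Tk1*, *Orc5* and *Gins1* lie at the lower left at both times. With mitochondrial scaling most of the points on the right would move to the left of 0.

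The origin recognition complex, which marks the sites where replication can begin, split between its subunits. *Orc5* was measured at 29.5, 28.7 and 26.3 CPM in the uninduced MSR-dCas9-Control libraries and at 27.2, 27.1 and 26.5 in the uninduced MSR-dCas9-Activator ones. At 12 h it stood at 30.5, 29.7 and 29.3 CPM in the first line and at 7.23, 9.80 and 8.03 in the second. The lines overlapped before induction and were far apart afterwards, with a log2 fold change of -1.84 ± 0.11 (SE, n = 3 per line) at 12 h (edgeR's quasi-likelihood test, Benjamini-Hochberg adjusted p = 1.74e-14). *Orc4* took the other course, from 80.4, 77.3 and 84.5 CPM against 74.0, 65.2 and 70.5 before induction to 87.9, 89.5 and 81.8 against 134, 123 and 133 at 12 h. Every MSR-dCas9-Activator library was then above every MSR-dCas9-Control one, and *Orc4* was 0.59 ± 0.08 higher on the log2 scale (edgeR, adjusted p = 1.14e-07), although mitochondrial scaling put it at -0.01. *Orc1*, the largest subunit, was lower at all 5 times from induction on, by 0.33 to 0.73 on the log2 scale. *Orc3* and *Orc6* were higher at induction by 0.36 and 0.28 with TMM. Under mitochondrial scaling 5 of the 6 ORC genes were lower (47.63% of all genes) and none higher (23.5%) at 3 h.

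Of the licensing factors, *Cdt1* and its inhibitor *Gmnn* moved apart. *Gmnn* was at 18.2, 18.1 and 17.9 CPM in MSR-dCas9-Control cells at 12 h and at 8.24, 5.58 and 5.49 in MSR-dCas9-Activator cells, a log2 fold change of -1.50 ± 0.11 (edgeR, adjusted p = 2.07e-12). *Cdt1* was at 98.1, 105 and 116 CPM at 3 h in the first line and at 124, 166 and 180 in the second, a difference of 0.55 ± 0.11 (edgeR, adjusted p = 5.92e-05) that mitochondrial scaling turned to -0.04. By 24 h *Cdt1* was lower by 0.53. *Cdc6*, the ATPase that recruits MCM2-7 together with CDT1, was 0.38 higher at 3 h with TMM and 0.47 lower at 24 h.

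The 6 genes of the MCM helicase were called alike at 3 h and 6 h with TMM scaling, but not at induction, 12 h or 24 h. All 6 were higher at 3 h (39.6% of all genes and 29.5% of the abundant ones) and again at 6 h (40.8% and 29.2%). Their medians were 0.47 and 0.50. With mitochondrial scaling, however, none was higher at these times (23.5% and 23.97% of all genes), and 1 and 2 were lower (47.63% and 51.85%). The medians were then -0.13 and -0.22. Relative to the median of all genes, the MCM median was 0.31 higher at 3 h by both scalings, and all 6 lay above that median. *Mcm7* was at 231, 223 and 217 CPM in the MSR-dCas9-Control libraries at 6 h and at 472, 287 and 439 in the MSR-dCas9-Activator ones, the lines not overlapping and replicate 2 being the lowest of its line. Its log2 fold change was 0.81 ± 0.15 (edgeR, adjusted p = 2.83e-05). *Mcm5* was at 247, 269 and 258 CPM at 6 h in the first line and at 452, 250 and 393 in the second, so that replicate 2 lay within the range of the other line. At 24 h *Mcm2*, *Mcm3*, *Mcm5* and *Mcm6* were lower, *Mcm5* by 0.66 ± 0.14 (edgeR, adjusted p = 0.000192), while *Mcm4* at -0.12 and *Mcm7* at 0.14 did not pass the test. Without replicate 2 2 MCM genes were higher and 2 lower at 24 h, their median being -0.01, and with DESeq2's size factors 2 were lower and none higher.

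Among the partners that complete the CMG helicase, *Cdc45* was higher from induction to 12 h with TMM scaling, *Gins1*, *Gins2* and *Gins3* were lower over the same times, and *Gins4* was higher at 3 h and 6 h. *Cdc45* was at 45.4, 40.9 and 43.2 CPM in MSR-dCas9-Control cells at 3 h and at 88.9, 67.4 and 88.2 in MSR-dCas9-Activator cells, with no overlap. The difference of 0.91 ± 0.13 (edgeR, adjusted p = 3.82e-07) was the largest rise among the 53 genes at that time, and *Cdc45* was the 1 gene that mitochondrial scaling also called higher at 3 h, at 0.30. At 24 h it was lower by 0.34. *Gins1* was at 31.4, 32.3 and 30.4 CPM at 12 h in the first line and at 11.1, 7.72 and 9.65 in the second, a log2 fold change of -1.73 ± 0.13 (edgeR, adjusted p = 2.04e-12). *Gins3* was lower by 1.78 at 6 h and by 1.02 at 24 h, and *Gins2* by 0.26 and 0.63, whereas *Gins4* was 0.39 higher at 3 h with TMM and at -0.25, without a call, at 24 h. The kinase gene *Cdc7* did not differ detectably at induction, at -0.02 ± 0.09, and then was lower by 0.32, 0.97 and 1.62 at 3, 6 and 12 h. Its activator *Dbf4* was 0.37 higher at 3 h with TMM and 0.36 lower at 24 h. *Mcm10*, which helps to activate the helicase, was higher at induction and up to 12 h with TMM, by 0.33 to 0.56.

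**Figure D3:**
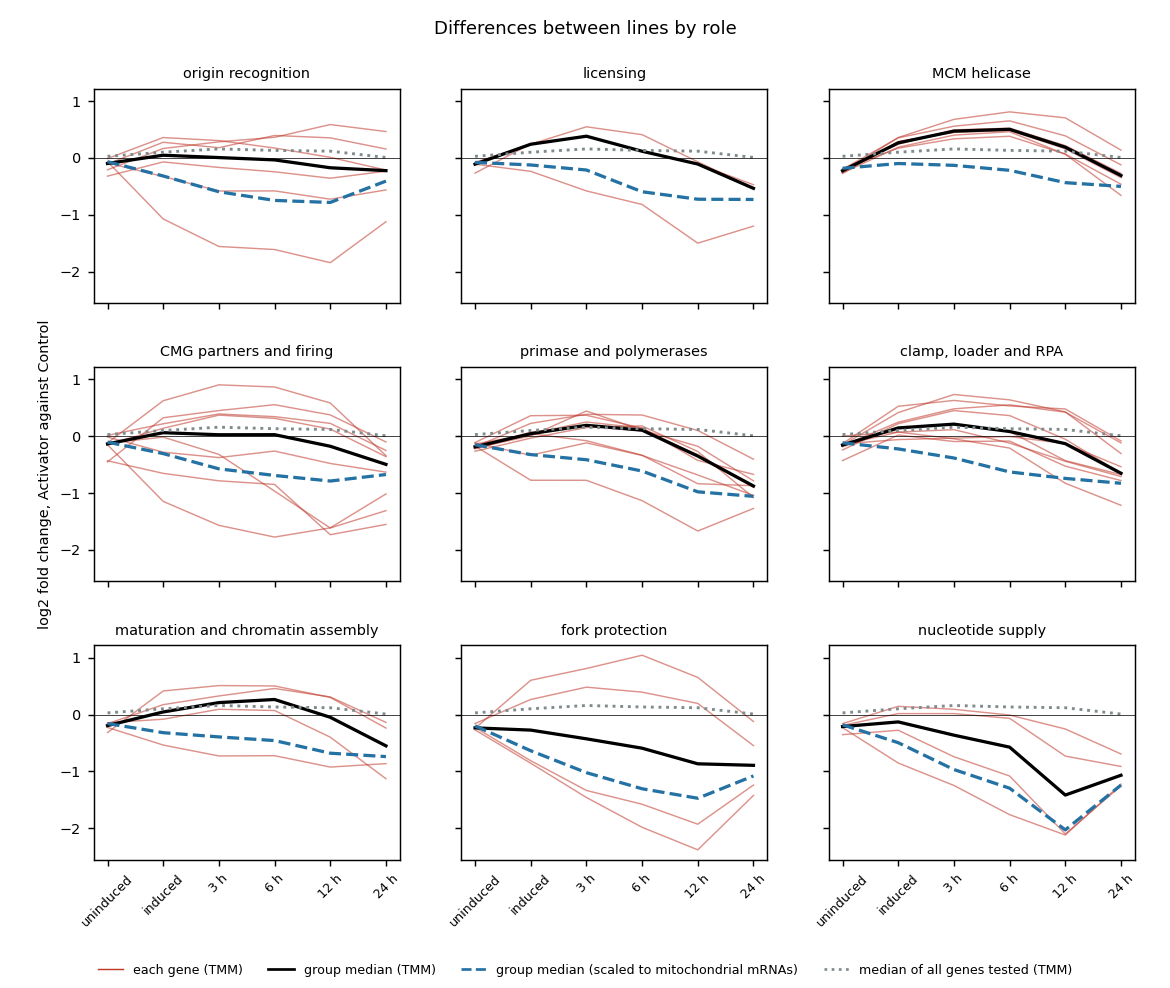
Log2 fold change of MSR-dCas9-Activator against MSR-dCas9-Control (vertical axis) by time (horizontal axis) for each of the 9 role groups. Thin lines are single genes and the black line their median with TMM scaling, the dashed line is the median with scaling to mitochondrial messenger RNAs, and the dotted line is the median of all genes tested with TMM. The MCM median lies above 0 from induction to 12 h with TMM and below 0 with mitochondrial scaling, and the nucleotide supply genes reach their lowest median, -1.42, at 12 h.

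Of the genes of primase and the replicative polymerases, all 9 were lower at 24 h under TMM and under mitochondrial scaling (29.4% and 30.8% of all genes). Their median with TMM was -0.88, against 0.01 for all genes and -0.30 for the abundant genes, of which 49.5% were lower. *Pole*, the catalytic subunit of the leading strand polymerase, was at 164, 153 and 172 CPM in MSR-dCas9-Control cells at 24 h and at 98.1, 80.1 and 84.6 in MSR-dCas9-Activator cells. The lines did not overlap, and the log2 fold change was -0.90 ± 0.11 (edgeR, adjusted p = 2.75e-08), after 0.25 at 3 h. *Pold3*, an accessory subunit of polymerase delta, was lower from induction on, and at 12 h was at 40.5, 38.2 and 37.6 CPM in the first line against 11.5, 13.9 and 11.2 in the second. Its difference of -1.67 ± 0.11 (edgeR, adjusted p = 7.70e-14) contrasted with -0.18 for the catalytic subunit gene *Pold1* and -0.27 for *Pold2* at the same time. *Prim1* and *Prim2*, the primase subunits, were 0.37 and 0.39 higher at 3 h with TMM and 0.67 and 0.40 lower at 24 h. *Pola1* and *Pola2* were lower at 24 h by 0.88 and 1.04, and *Pole2* by 0.87.

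The clamp, its loader and the single-strand binding protein RPA split by subunit. *Pcna* was at 219, 196 and 190 CPM in MSR-dCas9-Control cells at 24 h and at 146, 102 and 108 in MSR-dCas9-Activator cells, lower by 0.78 ± 0.12 (edgeR, adjusted p = 2.00e-06), after no call up to 6 h. Reads of *Pcna* could be shared with its processed pseudogene *Pcna-ps2*, which held a mean count of 804, so its level is less certain. The clamp loader genes *Rfc2* and *Rfc4* were higher from induction to 12 h with TMM, by 0.42 to 0.74 and by 0.48 to 0.63, while *Rfc1* and *Rfc5* had no call up to 6 h and were lower by 0.71 and 0.54 at 24 h. *Rpa1*, which encodes the large RPA subunit, was 0.42 higher at 12 h with TMM and -0.20 with mitochondrial scaling. *Rpa3*, the small subunit, was at 19.6, 19.4 and 15.9 CPM at 12 h in the first line and at 12.8, 7.72 and 10.7 in the second, lower by 0.83 ± 0.16 (edgeR, adjusted p = 3.10e-05) and by 1.22 at 24 h.

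Of the genes for maturation of Okazaki fragments and chromatin assembly, the flap endonuclease gene *Fen1* was 0.51 higher at 3 h with TMM and at -0.24, without a call, at 24 h. *Lig1*, which seals the nicks, was lower by 1.13 at 24 h. The histone chaperone CAF-1 split, *Chaf1a* being lower at all 5 times from induction on, by 0.54 to 0.92, and *Chaf1b* 0.31 higher at 12 h with TMM and -0.32 with mitochondrial scaling. Of the exon bases of *Fen1*, *Gins2*, *Chaf1a* and *Orc2*, 84.2%, 67.3%, 52.5% and 29.8% lie under a gene on the opposite strand, and since the strand setting of the counting is not given in the sources used here, those 4 are less certain.

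The fork protection genes held both extremes of the set. *Wdhd1*, whose product AND-1 links the CMG helicase to polymerase alpha, was at 73.8, 74.8 and 72.1 CPM in MSR-dCas9-Control cells at 12 h and at 14.0, 15.5 and 12.8 in MSR-dCas9-Activator cells. Its log2 fold change of -2.38 ± 0.11 (edgeR, adjusted p = 1.58e-16) was the lowest of the 53 genes at 12 h, after -0.27 before induction, which did not pass the test. *Clspn*, encoding claspin, an adaptor of the replication checkpoint, was lower by 0.81 at induction, 1.93 at 12 h and 1.24 at 24 h. *Tipin* went the other way, from 49.5, 44.8 and 44.7 CPM in the first line at 6 h to 133, 64.7 and 97.8 in the second. The lines did not overlap, although the 3 MSR-dCas9-Activator libraries were wide apart, and the difference of 1.04 ± 0.16 (edgeR, adjusted p = 1.35e-06) was also called with mitochondrial scaling, at 0.31. Its partner *Timeless* was 0.48 higher at 3 h with TMM and 0.55 lower at 24 h.

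All 4 genes of nucleotide supply were lower at 12 h (34.1% of all genes and 50.7% of the abundant ones) and at 24 h (29.4% and 49.5%). *Rrm2*, the regulated small subunit of ribonucleotide reductase, was at 194, 205 and 226 CPM in MSR-dCas9-Control cells at 12 h and at 59.8, 38.5 and 48.3 in MSR-dCas9-Activator cells. The log2 fold change of -2.10 ± 0.14 (edgeR, adjusted p = 2.36e-13) compared with -0.73 for the large subunit gene *Rrm1*. *Tk1*, the thymidine kinase of dividing cells, was already at 62.7, 60.1 and 57.4 CPM at induction, below all of 106, 107 and 113 in the other line, and at 25.2, 30.8 and 24.1 against 114, 113 and 123 at 12 h. It was lower by 2.12 ± 0.13 at 12 h (edgeR, adjusted p = 6.39e-14) and by 1.23 at 24 h. *Tyms* had no call up to 6 h and was lower by 0.25 at 12 h and 0.69 at 24 h. At 12 h, 3 of the 4 were lower without replicate 2 of both lines, *Tyms* then standing at 0.02, and 3 were lower with DESeq2's size factors. All 4 were lower at 24 h in both cases.

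**Figure D4:**
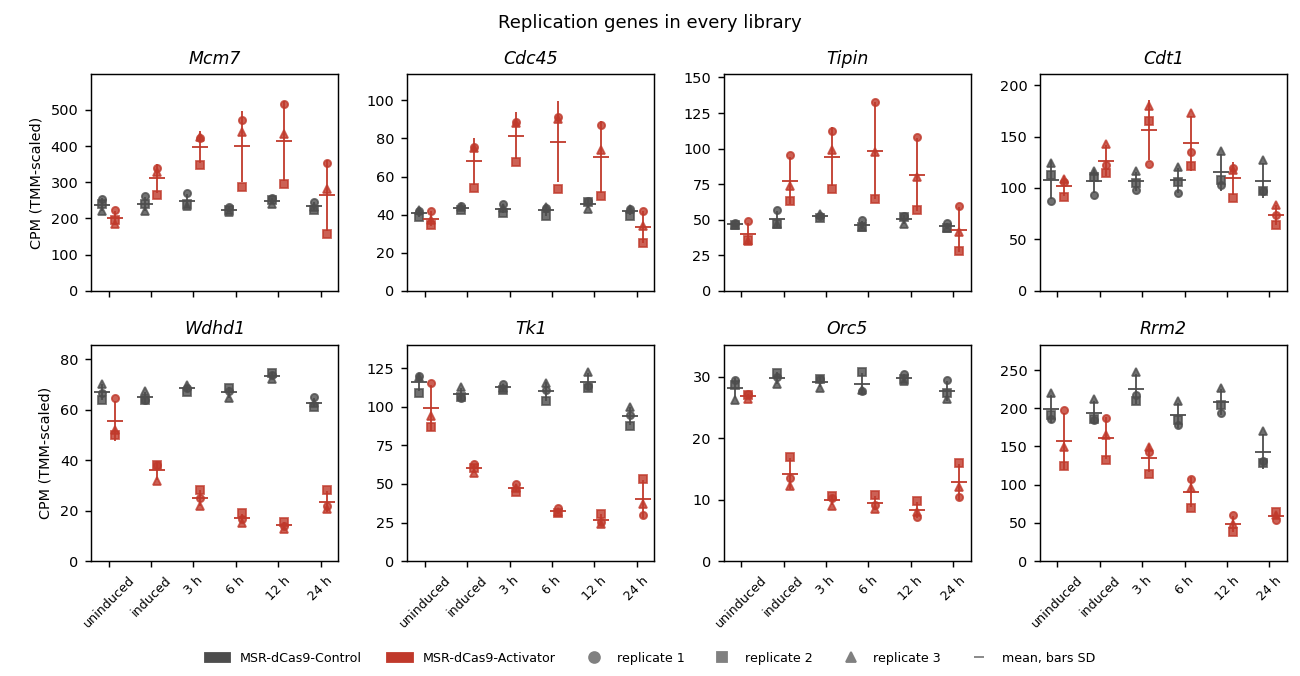
CPM after TMM scaling (vertical axes, from 0) of 8 replication genes in every library by time, grey for MSR-dCas9-Control and red for MSR-dCas9-Activator, with a marker shape per replicate, the mean as a dash and the SD as a bar. *Mcm7*, *Cdc45*, *Tipin* and *Cdt1* stand above the other line at 3 h with TMM scaling, which mitochondrial scaling turns below it for *Cdt1*, and *Wdhd1*, *Tk1*, *Orc5* and *Rrm2* lie below it at 3 h and after. Replicate 2 (squares) is the lowest red marker for *Mcm7* from induction on.

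Ratios between partner genes, taken within a library and so free of any scaling between libraries, showed the same divergence. The 9 pairs were chosen after their values were seen, so the ratios are given as a description. Per kilobase, *Orc4* exceeded *Orc5* 2.38 ± 0.242 times before induction in MSR-dCas9-Control cells (SD, n = 3) and 2.15 ± 0.139 times in MSR-dCas9-Activator cells. At 12 h the ratios were 2.38, 2.49 and 2.31 in the first line and 15.3, 10.4 and 13.7 in the second, a 5.49-fold difference of the means. *Cdc45* to *Gins1* was 0.649, 0.627 and 0.613 against 3.39, 2.78 and 3.30 at 12 h, and this ratio already did not overlap between the lines before induction, at a 1.24-fold difference. *Dbf4* to *Cdc7* was 1.35, 1.37 and 1.50 against 4.60, 4.08 and 5.64, and *Cdt1* to *Gmnn* 2.62, 2.77 and 3.56 against 6.78, 7.56 and 10.0. *Rrm1* to *Rrm2* was 0.475, 0.462 and 0.422 against 1.16, 1.12 and 1.24 at 12 h. In each of these pairs every MSR-dCas9-Activator library lay above every MSR-dCas9-Control library. Within the MCM ring, *Mcm7* to *Mcm5* differed 1.56-fold at 12 h and 1.71-fold at 24 h. By 24 h most ratios had moved back in part, *Orc4* to *Orc5* to a 3.15-fold and *Cdc45* to *Gins1* to a 2.36-fold difference.

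**Figure D5:**
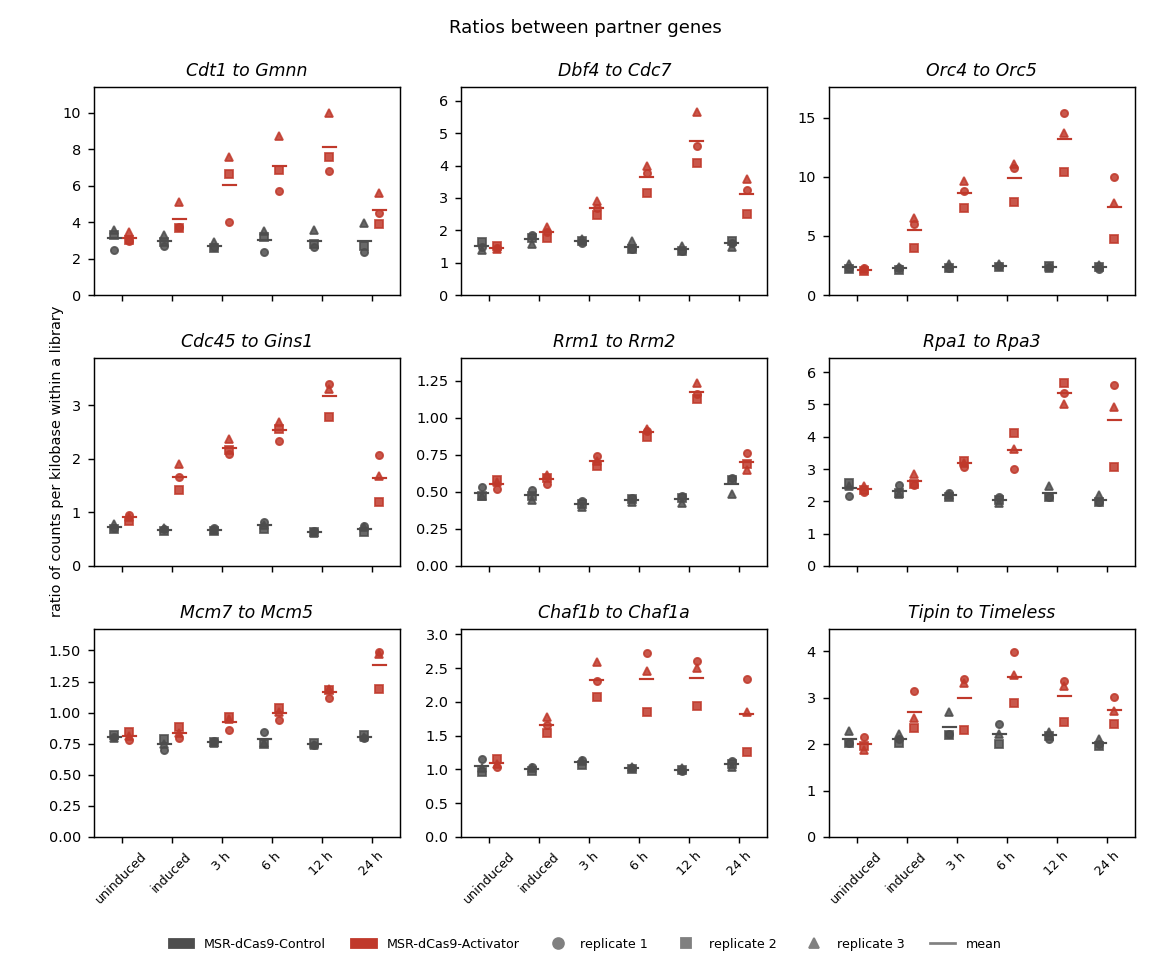
Ratio of counts per kilobase between 9 pairs of partner genes (vertical axes, from 0) in every library by time, grey for MSR-dCas9-Control and red for MSR-dCas9-Activator, with a marker shape per replicate and the mean as a line. The grey means move less over time than the red ones, though that of *Rrm1* to *Rrm2* goes from 0.419 at 3 h to 0.555 at 24 h. The red ratios of *Orc4* to *Orc5* reach 15.3, 10.4 and 13.7 at 12 h and are lower at 24 h.

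Stricter limits left few genes. With a mean count above 100 and a fold beyond 2, the limits of the study, 10 of the 53 were lower at 12 h against 10.9% of all genes and 14 were lower at 24 h against 4.12%, and none was higher at either time. The 10 at 12 h are 18.9% of the set and the 14 at 24 h are 26.4% of it. Only genes with a mean count above 100 can pass, so the shares of all genes understate the background. The genes lower by these limits were 3113 of the 13628 abundant genes at 12 h and 1177 of them at 24 h. Against the abundant genes, the share of the set was not above the background at 12 h and was above it at 24 h.

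Within the lines, the MSR-dCas9-Control line showed no called change in the 53 genes. From uninduced to induced, 0 passed edgeR's test (background 0.214%), with 3 at an unadjusted p under 0.05 (2064 of the 28536 genes tested). From uninduced to 24 h 0 passed (0.788%), with 8 at an unadjusted p under 0.05 (3233 of the genes tested). DESeq2 made 1 call among the 53 in each comparison. It called 0.22% of all genes higher and 0.56% lower at induction, and 0.95% and 1.91% at 24 h. Fits on the compared groups alone called 11 and 13 of the 53. Over all genes those fits called 5.21% higher and 6.92% lower at induction and 7.79% and 12.7% for the later sample. Of the 53 genes, 34 rose at induction in MSR-dCas9-Activator cells (background 32.9%) and 8 fell (28%), though with mitochondrial scaling 1 rose (17.1% of all genes) and 22 fell (48.25%). Of the 13628 abundant genes, 27.6% rose and 37.1% fell at induction with TMM. From uninduced to 24 h in the same cells, 2 rose (34.3% of all genes and 18% of the abundant ones) and 34 fell (28.5% and 49.6%). From 12 h to 24 h, 38 fell (19.5% of all genes and 25.7% of the abundant ones) and 6 rose (17.5% and 26.9%). The steepest fall was that of *Cdc45*, by 1.06 on the log2 scale, and *Wdhd1*, *Orc5* and *Tk1*, among the lowest at 12 h, rose by 0.73, 0.61 and 0.59. With mitochondrial scaling 8 rose (19.6% of all genes) and 15 fell (1.93%) from 12 h to 24 h.

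The change from the uninduced state differed between the lines at 12 h for 15 genes that moved up more in MSR-dCas9-Activator cells (23%) and 18 that moved down more (28%). At 24 h it differed for 1 upward (14.4%) and 29 downward (18.7%). Of the 13628 abundant genes, 20.9% moved up more and 43.1% down more at 12 h, and 12% and 33.7% at 24 h. These tests share libraries with the comparisons at single times, so they are not separate evidence.

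Other genes of the pathway, in lists written by hand, were mostly lower late in the course. Of 40 other replication genes 4 were higher and 16 lower at 3 h, and the split was 3 to 31 at 12 h and 2 to 33 at 24 h. Among the 13628 abundant genes, the background of these counts, 29.5%, 26.3% and 17.7% were higher at these times. The shares lower were 42.8%, 50.7% and 49.5%. *Dna2*, a nuclease of Okazaki fragment processing, was lower by 1.45 at 3 h and the maintenance methyltransferase gene *Dnmt1* by 1.25 at 24 h. Of 20 E2F and G1/S regulators, 18 were lower at 12 h and 18 at 24 h, against the same 50.7% and 49.5%. *E2f2* was lower by 2.03 and *Cdk2* by 1.32 as early as 3 h, and *E2f1* differed by 0.01 at 3 h, with no call, and was lower by 0.65 at 12 h. All 7 proliferation markers were lower at 24 h, with a median of -1.04 against -0.30 for the abundant genes.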

How the data were processed

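Total RNA, depleted of ribosomal RNA and kept stranded, was sequenced from 3 libraries in each of 12 groups. The authors trimmed read pairs (cutadapt), mapped them to GRCm38 (STAR) and assigned them to annotated genes and repeats (TEtranscripts), and the deposited values are raw counts, all whole numbers. The strand setting and the sharing of multi-mapped reads are not given in the sources used here. Libraries of the MSR-dCas9-Repressor line were not analysed here.

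Groups came from the sample titles. The labels call the libraries of a group replicates, and p-values measure the spread between these cultures. One row that names neither a gene nor a repeat held at most 0.00452% of the counts of a library and was left out. Members were matched to Ensembl identifiers by symbol through GENCODE M21. The members and the gene lists were chosen with earlier results of these data known. Genes named in the text with their values include, for each role, the members with the lowest and the highest difference at 12 h, and others were added after their values were seen.

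The 36 libraries were fitted together in edgeR 4.0.16 (R 4.3.3, filterByExpr, TMM, robust quasi-likelihood) with group (line by time) and replicate number, which left 28536 genes. The replicate number was also in the DESeq2 design of the study. Benjamini-Hochberg adjustment ran over all of them in each of 13 comparisons. A standard error is the estimate over the root of its F statistic. CPM used TMM-scaled library sizes from genes. Same-numbered libraries of the 2 lines were checked for pairing: correlations of their deviations from group means ran from -0.02 to 0.51, and 16 of 18 were over 0.1. Alternatives were DESeq2 1.42.0, other scalings, no count filter, no replicate block, the compared groups alone, the limits of the study (mean over 100, fold over 2) and each library left out. The fit was tested on simulated data. Depth ran from 27376846 to 57371803 counts, and the size of the counting error beside the spread between cultures was not tested.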

Additional observations from a re-analysis of the deposited data

Results flagged for a closer look

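Tests of whether the change from the uninduced state differed between the lines made calls among the replication genes. At 12 h it differed for 33 of the 53 genes, 28.3% of the set moving up more in MSR-dCas9-Activator cells and 34% down more. The shares were 23% and 28% of all genes tested, and 20.9% and 43.1% of the genes with a mean count above 100. *Rrm2* and *Wdhd1* were among those that moved down more. At 24 h it differed for 30, with 1.89% of the set up more and 54.7% down more. The shares were then 14.4% and 18.7% of all genes, and 12% and 33.7% of the abundant ones. Both counts are from edgeR's interaction test with Benjamini-Hochberg adjustment. With 3 libraries in each group, single libraries were not tested as outliers.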

How the results depend on the processing

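Calls among the 53 genes were recomputed under every alternative, and 202 of 233 recomputed counts stayed within 1.5 times the main count. These counts add calls in both directions and so do not measure whether the direction held. At 3 h mitochondrial scaling stayed within that limit although most genes called higher with TMM were no longer so. The uninduced comparison went from 0 calls to 1 with library sizes alone, 1 with DESeq2 and 3 with the compared groups alone, and ranged from 0 to 2 with 1 library or replicate left out. The limits of the study left 2, 5, 8, 10 and 14 calls at the 5 times from induction to 24 h, 0, 9 and 1 in the MSR-dCas9-Activator line (induced and 24 h against uninduced, 24 h against 12 h), and 10 and 8 for the differing change at 12 h and 24 h. With a replicate or library left out, calls at those 5 times ranged from 9 to 41, 24 to 46, 24 to 47, 26 to 39 and 37 to 44, from 20 to 45, 31 to 40 and 19 to 45 in the MSR-dCas9-Activator line, and from 17 to 38 and 15 to 35 for the differing change. The low end came without replicate 3 in these, a setting in which the calls over all genes fell too. In the MSR-dCas9-Control line DESeq2 gave 1 and 1 call, library sizes alone 1 at 24 h, and the compared groups alone 11 and 13. Mitochondrial scaling gave 23 calls in the MSR-dCas9-Activator line both for induced against uninduced and for 24 h against 12 h.

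Without the replicate block the counts were 0 before induction and 17, 36, 38, 33 and 38 at those 5 times, all within 1.5 times of those with it. Of the genes with the lowest or highest difference of their role at 12 h, mitochondrial scaling at 12 h reversed *Orc4* to -0.014, *Mcm5* to -0.56, *Cdc45* to -0.036, *Prim2* to -0.51, *Rfc4* to -0.15 and *Chaf1b* to -0.32 (others too, *Rpa1* and *Rfc2* standing at -0.20), and leaving out replicate 2 reversed *Tyms* at 12 h, whose values with 1 replicate left out ran from -0.36 to 0.019, and *Rfc4* at 24 h, from -0.28 to 0.32. The cause was not tested. RNA without a spike-in gives no absolute level, which limits every direction that a scaling reverses.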
